A study of Mus musculus with 12 samples.

Results

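The genes described here are Myc and its companions in ribosome production: Max, subunits of RNA polymerase I, nucleolar phosphoproteins, the small nucleolar ribonucleoproteins (snoRNPs) that modify rRNA, and processing factors of both ribosomal subunits. They were chosen by name, as the rows with these 34 symbols among the 35976 gene symbols counted in each library, and all 34 had enough reads to be tested. The libraries were made from mouse haematopoietic stem cells (HSCs) sorted as Lin- c-Kit+ Sca-1+, a gate that also holds multipotent progenitors. The 12 libraries form 6 groups of 2. Wild-type (WT) and Cd38 knockout (KO) cells were taken fresh from mice aged 2 months (young fresh WT, young fresh KO), or from mice aged 24 months (old fresh WT, old fresh KO), or were taken from mice aged 2 months and stimulated with cytokines outside the body for 24 h (stimulated WT, stimulated KO). Nothing in the labels says whether 2 libraries of a group came from separate mice or from pools. The p-values therefore measure only the spread between these libraries, which may be technical. The young fresh WT pair differed in sex-linked reads, as given below, so those 2 libraries came from different animals.

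Myc is a transcription factor that binds DNA as a dimer with Max, mostly at the E-box CACGTG, and is known for raising the output of RNA polymerase I and of many genes of ribosome assembly. Max also pairs with Mxd, Mnt and Mga proteins, which repress genes at the same sites. Ribosome assembly starts in the nucleolus, where rRNA is transcribed, methylated by box C/D snoRNPs, pseudouridylated by box H/ACA snoRNPs, cut and folded into the small and large subunits. Resting HSCs are known for low protein synthesis, and leaving quiescence is generally accompanied by growth.

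The promoters were read because Myc and Max dimers are known for the E-box. RefSeq's promoter table for GRCm38.p6, which runs from 250 bases before to 50 after each start, held 28 of the 34 genes; Myc, Fbl, Npm1, Rrp12, Bop1 and Rrs1 were not matched. CACGTG, which reads the same on both strands, was present in 7 of these 28 genes (25%), and in 8.09% of the 27025 genes of the table. Between 100 bases before and 50 after the start the shares were 25% and 5%. The related motif CACGCG, or CGCGTG on the other strand, was present in 9 of 28 (32.1%) and in 10.5% of all genes of the table. The median GC content of the promoters was 57.7% for these genes and 52.7% for the whole table, and the share of promoters with a motif was not compared at matched GC content. The 7 E-boxes are printed with their flanks because they are the stretches that a dimer of Myc and Max is known to read, with the E-box in capitals:
Max: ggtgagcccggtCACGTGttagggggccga (chr12:76962234-76962263, minus strand)
Mybbp1a: gtcttctgagccCACGTGtttg (chr11:72441355-72441376, plus strand)
Wdr43: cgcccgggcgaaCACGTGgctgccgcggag (chr17:71616220-71616249, plus strand)
Utp20: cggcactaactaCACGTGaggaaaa (chr10:88826765-88826789, minus strand)
Pes1: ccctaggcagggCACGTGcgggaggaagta (chr11:3963965-3963994, plus strand)
Nop2: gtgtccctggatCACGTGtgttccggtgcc (chr6:125131811-125131840, plus strand)
Nle1: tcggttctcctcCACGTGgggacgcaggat (chr11:82908355-82908384, minus strand)

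Of these 7 genes, Max and Mybbp1a passed the test for stimulation and Max and Wdr43 passed that for age, as described below. The 100 bases before the start are shown for the 5 genes that passed the test for stimulation, with CG pairs in capitals, so that genes moving in opposite directions can be set side by side. For a gene with more than 1 start only the first listed is shown. Whether CG pairs go with direction was not tested. Max and Nop58, which fell, hold 8 and 6 CG pairs, and Mybbp1a, Dkc1 and Nop10, which rose, hold 6, 2 and 0. The median was 6.5 over the 32 matched promoters of these genes, some of which have more than 1 start, and 3 over the table:
Max: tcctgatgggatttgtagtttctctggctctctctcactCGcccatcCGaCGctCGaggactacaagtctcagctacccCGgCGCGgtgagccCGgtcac (chr12:76962249-76962348, minus strand)
Mybbp1a: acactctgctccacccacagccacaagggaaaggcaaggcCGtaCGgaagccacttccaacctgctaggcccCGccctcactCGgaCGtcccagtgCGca (chr11:72441227-72441326, plus strand)
Nop58: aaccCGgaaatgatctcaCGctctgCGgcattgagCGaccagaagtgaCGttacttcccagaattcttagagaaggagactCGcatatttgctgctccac (chr1:59684906-59685005, plus strand)
Dkc1: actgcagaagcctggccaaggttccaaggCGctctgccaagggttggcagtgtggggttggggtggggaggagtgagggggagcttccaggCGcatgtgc (chrX:75095754-75095853, plus strand)
Nop10: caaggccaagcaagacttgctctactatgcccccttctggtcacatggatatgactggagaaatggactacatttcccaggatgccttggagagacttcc (chr2:112261826-112261925, plus strand)

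Library totals were 1600155 to 1963635 counts in young fresh, 2692245 to 3249721 in stimulated and 3796591 to 5164720 in old fresh libraries, so age goes with depth and they cannot be told apart. The 34 genes together took 8233 to 11030 CPM (counts per library size, scaled with TMM) in each library. Cd38 reads were found in every library, at 31.9 to 62.8 CPM in young fresh KO against 17.6 to 24.6 in young fresh WT. In old fresh cells they were at 13.2 to 19.9 CPM in KO against 41.4 to 74.4 in WT. In stimulated cells they were at 2.32 to 3.59 CPM in KO and 0.998 to 8.58 in WT. The labels do not say which part of the gene is deleted, so 3′ tags do not check the genotype. The library of young fresh WT replicate 1 had 0 CPM of Xist and 200.1 of Y-linked genes, as in male cells. The other 11 had 198 to 745 of Xist and at most 6.62 of Y-linked genes. The spread of the young fresh WT pair thus includes a difference of sex. Results that change without young fresh WT replicate 1 are marked below. Stem and progenitor markers summed to 1317 to 2250 CPM, and all 10 of these genes had counts in each group. The 6 T and NK cell markers summed to 14.3 to 34.7 CPM in young fresh, 113 to 231 in stimulated and 19.4 to 123 in old fresh libraries, with Cd3e, Cd8a and Cd4 at 0 in all 12. The 6 B cell markers summed to 0.63 to 21.4, 21.0 to 180.3 and 0.27 to 77.0 CPM, with Ms4a1 at 0 in all 12. Marker genes of neutrophils summed to 5015 to 9582 CPM in young fresh, 1618 to 2882 in stimulated and 366 to 3179 in old fresh libraries. In RNA from many cells, fewer cells of a type and less RNA per cell cannot be told apart.

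**Figure D1:**
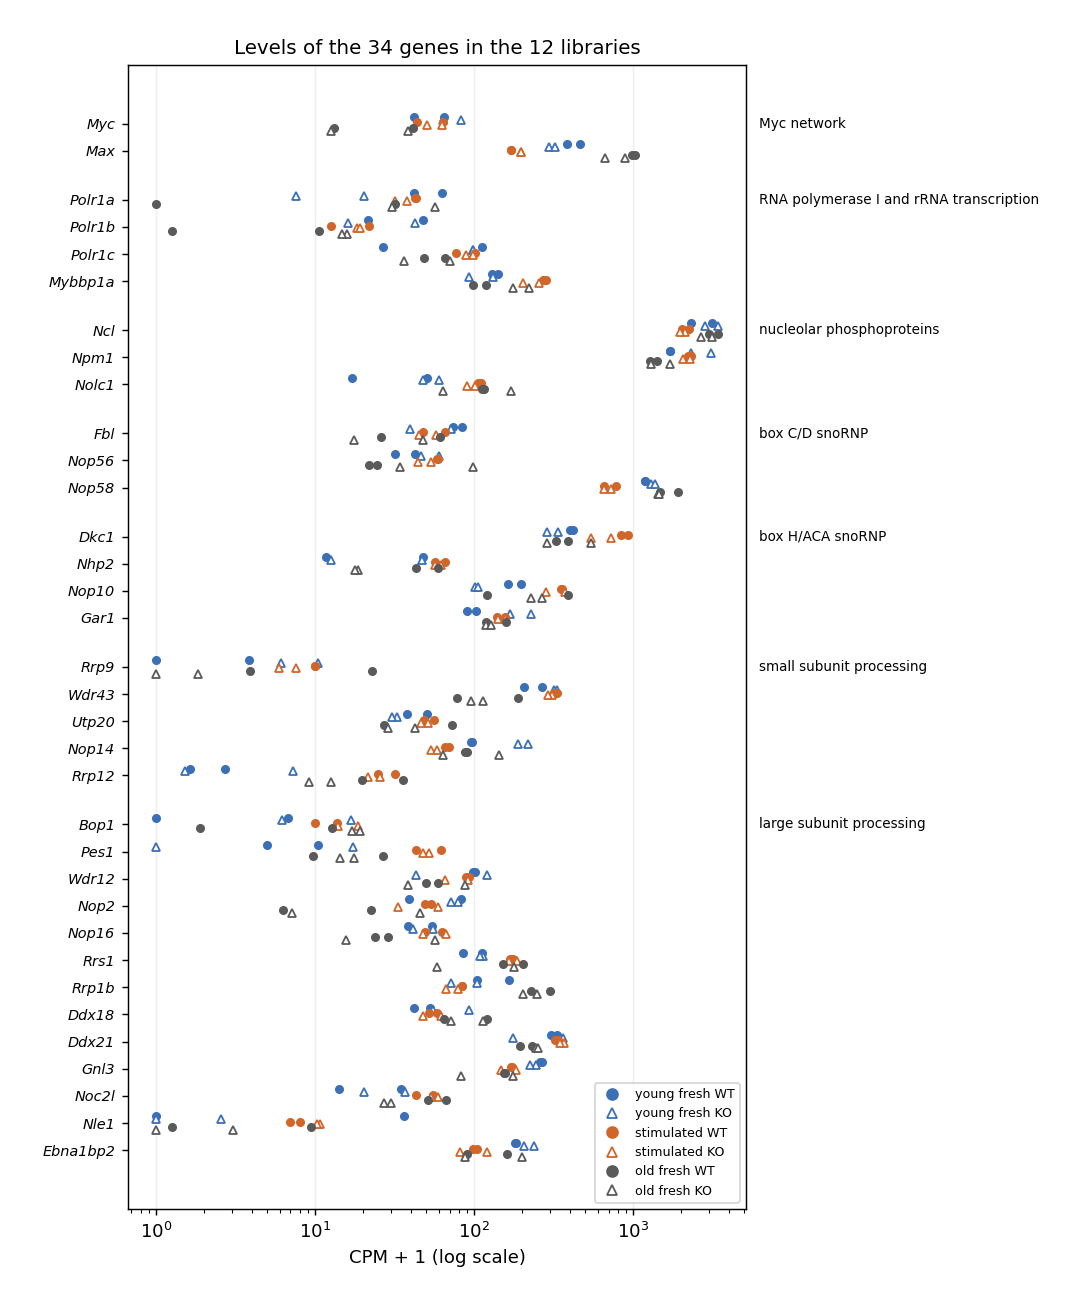
Levels of each of the 34 genes in the 12 libraries, grouped by role, as CPM + 1 on a log axis (filled circles WT, open triangles KO; colours give young fresh, stimulated and old fresh). Stimulated libraries lie close together for most genes, while fresh libraries of 1 group often lie far apart.

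Positions of genes are given as in the GENCODE annotation of GRCm38, the assembly of mm10. The last 500 bases of 7 of the 34 genes overlap exons of another gene on the other strand (Spns2 for Mybbp1a, Idh3b for Nop56, Mpp1 for Dkc1, Rmnd5b for Nhp2, Mroh1 for Bop1, Samd11 for Noc2l and Fndc8 for Nle1). The strand setting of the counting is not given in the sources used here, so shared reads cannot be told apart. The spread between replicates set what could be seen. In stimulated cells the 2 libraries of a group differed by a median of 0.14 (WT) and 0.21 (KO) on the log2 scale over the 34 genes, and no gene differed by more than 2-fold. In young fresh cells the medians were 0.43 and 0.41, with 10 and 9 of the 34 genes more than 2-fold apart. Old fresh cells had medians of 0.43 and 0.61, with 12 and 13 genes more than 2-fold apart. Over all genes tested the medians were larger in every group, from 0.30 in stimulated to 0.96 in young fresh KO. Among the thinly counted genes of this set, Nle1, which acts late in large subunit assembly, had 0 and 35.4 CPM in the young fresh WT pair.

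Stimulation changed 5 of the 34 genes when both genotypes were averaged. Mybbp1a, Dkc1 and Nop10 rose, and Max and Nop58 fell, while Myc itself did not pass. The test was edgeR's quasi-likelihood test with Benjamini-Hochberg adjustment over 11548 genes, with a call at an adjusted p under 0.05. Over all genes tested 1.31% rose and 1.51% fell, against 3 and 2 of these 34. Stimulated and fresh cells differ in culture, cytokines and time outside the mouse, which cannot be told apart here.

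Myc (chr15:61985391-61990374, plus strand) was counted at 63.4 and 40.6 (WT) and 62.3 and 82.2 CPM (KO) in young fresh cells, 42.9 and 62.4 (WT) and 49.7 and 61.9 CPM (KO) in stimulated cells, and 12.2 and 40.2 (WT) and 11.6 and 37.2 CPM (KO) in old fresh cells. The stimulated libraries lie within the range of the young fresh ones, and the old libraries are all below the young fresh ones. Stimulation changed the level by -0.18 ± 0.55 (log2 fold change ± SE; 95% interval -1.35 to 1.00; adjusted p = 0.917). That interval still holds a 2-fold fall. Without young fresh WT replicate 1 the value was 0.01, and in every alternative Myc failed the test.

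Max (chr12:76937269-76962201, minus strand), the dimer partner of Myc, was at 381 and 459 (WT) and 294 and 324 CPM (KO) in young fresh cells, 170.3 and 169 (WT) and 197 and 195 CPM (KO) in stimulated cells, and 975 and 1022 (WT) and 883 and 667 CPM (KO) in old fresh cells. All stimulated libraries are below all young fresh ones, and all old libraries are above them. Stimulation lowered Max by a log2 fold change of -0.98 ± 0.16 (adjusted p = 0.00339), and the call held in 14 of 14 alternatives, which include leaving out each library. With WT alone the value was -1.31 (adjusted p = 0.0133), the only call among the 34 genes in that comparison, where 0.797% of all genes were called; DESeq2 called 2 higher and 2 lower (3.32% of all genes either way) and voom 1 and 2 (2.25%). The edgeR call of Max was lost without young fresh WT replicate 2 or either stimulated WT library (adjusted p 0.0942 to 0.187), and in a fit of the 4 libraries alone (0.114).

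The wider Myc network was read from a list of 11 tested genes, of which 0 rose and 1 fell with stimulation. That gene was Mycn, a close relative of Myc that also dimerises with Max and is known in HSCs. It was at 155 and 179 (WT) and 287 and 149 CPM (KO) in young fresh cells, 41.2 and 29.4 (WT) and 102 and 66.6 CPM (KO) in stimulated cells, and 333 and 241 (WT) and 286 and 178 CPM (KO) in old fresh cells. Every stimulated library is below every fresh one. The fall was -1.81 ± 0.29 on the log2 scale (adjusted p = 0.00314), held in 14 of 14 alternatives. Another relative, Mycl, was at 0 in all fresh libraries and at 1.38 to 4.95 CPM in the stimulated ones, and did not pass (adjusted p = 0.174).

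Among the 4 genes of RNA polymerase I and rRNA transcription, 1 rose and 0 fell. Mybbp1a (chr11:72441355-72451768, plus strand), a nucleolar protein that binds Myb and takes part in rRNA transcription and processing, was at 129 and 139 (WT) and 91.3 and 129.8 CPM (KO) in young fresh cells, 268 and 283 (WT) and 253 and 200.4 CPM (KO) in stimulated cells, and 117 and 97.3 (WT) and 222 and 175 CPM (KO) in old fresh cells. The stimulated libraries are all above the young fresh ones, and the old KO libraries are above the old WT ones. It rose by 1.04 ± 0.23 (adjusted p = 0.022). The call was lost without either young fresh WT library or any 1 of the 4 stimulated libraries (adjusted p 0.0524 to 0.177). Spns2, its neighbour on the other strand, was at 201 to 299 CPM in young fresh and 124 to 160 in stimulated libraries, the opposite direction. Polr1a and Polr1b, the large subunits of the polymerase, and Polr1c, which polymerases I and III share, did not pass; Polr1b, the next in order of p, had a log2 fold change of -0.85 ± 1.00 (adjusted p = 0.711). In a list of 12 other genes of the polymerase I machinery 0 rose and 2 fell. These were Polr1f (Twistnb in the files), a polymerase subunit, at -0.73 ± 0.17 (adjusted p = 0.0324), and Taf1d, a subunit of the selectivity factor SL1, at -0.92 ± 0.23 (adjusted p = 0.0418). Twistnb did not pass without either young fresh WT library, young fresh KO replicate 3 or any 1 of the stimulated libraries (adjusted p 0.0608 to 0.242). Taf1d did not pass without either young fresh WT library, young fresh KO replicate 4 or any 1 of the stimulated libraries (adjusted p 0.0964 to 0.191), nor in a fit of the 8 libraries alone (0.0559).

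None of the 3 nucleolar phosphoproteins passed with edgeR, though 2 had an unadjusted p under 0.05, and DESeq2 and voom each called 1 lower. That gene was Ncl, nucleolin, an abundant RNA-binding protein of the nucleolus. Its stimulated libraries were at 1967 to 2248 CPM, all below the young fresh ones at 2316 to 3402. The difference was -0.48 ± 0.13 (edgeR adjusted p = 0.0619). It also passed with RLE scaling (0.0283), with no filter on low counts (0.00616) and without young fresh WT replicate 1 (0.0371). Nolc1, which carries snoRNPs through the nucleus, had stimulated libraries at 89.4 to 109 CPM against 16.0 to 59.2 in young fresh ones, a difference of 1.27 ± 0.41 (adjusted p = 0.135). Npm1, nucleophosmin, a chaperone for ribosomal proteins and histones, differed by 0.05 ± 0.13; it has processed pseudogenes, so its counts are uncertain.

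The 2 classes of snoRNP, which modify rRNA, held calls in opposite directions. Of the 3 box C/D proteins 0 rose and 1 fell; of the 4 box H/ACA proteins 2 rose and 0 fell. Whether the classes differ was not tested.

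Nop58 (chr1:59684971-59719044, plus strand), a scaffold of the box C/D particle, was at 1184 and 1188 (WT) and 1301 and 1369 CPM (KO) in young fresh cells, 783 and 649.7 (WT) and 719 and 655 CPM (KO) in stimulated cells, and 1475 and 1899 (WT) and 1420 and 1444 CPM (KO) in old fresh cells. The 4 stimulated libraries are the lowest 4 of the 12. The fall was -0.84 ± 0.13 (adjusted p = 0.00259), held in 14 of 14 alternatives. In KO cells alone it was -0.96 (adjusted p = 0.0302), the only call among the 34 genes where 0.649% of all genes were called, and it was lost without any 1 of those 4 libraries (0.0664 to 0.347) and in a fit of them alone (0.142). In KO cells DESeq2 called 2 higher and 3 lower (4% of all genes either way) and voom 0 and 3 (1.04%). Its partner Nop56 and the methyltransferase Fbl, fibrillarin, did not pass; Fbl had a difference of -0.31 ± 0.50 (adjusted p = 0.811).

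Dkc1 (chrX:75095854-75109777, plus strand), dyskerin, the pseudouridine synthase of the box H/ACA particle and also a part of telomerase, was at 418 and 399.9 (WT) and 285 and 335 CPM (KO) in young fresh cells, 928 and 841 (WT) and 719 and 540.5 CPM (KO) in stimulated cells, and 326 and 386 (WT) and 540.2 and 285 CPM (KO) in old fresh cells. The lowest stimulated library, a KO one, and the highest old library, also KO, are almost level, and all stimulated libraries exceed all young fresh ones. The rise was 1.07 ± 0.20 (adjusted p = 0.00942), held in 14 of 14 alternatives. Mpp1, its neighbour on the other strand, was at 17.8 to 69.7 CPM in young fresh and 31.8 to 48.9 in stimulated libraries.

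Nop10 (chr2:112261926-112263269, plus strand), a small core protein of the same particle, was at 162 and 197 (WT) and 99.5 and 105 CPM (KO) in young fresh cells, 355 and 349 (WT) and 369 and 284 CPM (KO) in stimulated cells, and 120.1 and 387 (WT) and 228 and 266 CPM (KO) in old fresh cells. Stimulated libraries lie above young fresh ones, and the old WT pair spans nearly the whole range. The rise was 1.32 ± 0.29 (adjusted p = 0.0233). Without either young fresh WT library, either young fresh KO library or stimulated KO replicate 3 it did not pass (0.058 to 0.108). Nhp2, the third core protein, was at 55.5 to 64.5 CPM in stimulated and 10.7 to 46.8 in young fresh libraries, a difference of 1.04 ± 0.62 (adjusted p = 0.414). Gar1 differed by 0.10 ± 0.24.

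Of the 3 rises with stimulation, 1 was left without young fresh WT replicate 1, without young fresh WT replicate 2 or without stimulated KO replicate 3; Dkc1 was the one that passed each time. DESeq2 and voom each called 5 higher and 5 lower, where DESeq2 called 3.85% of all genes higher and 3.42% lower, and voom 3.49% and 2.68%. Marker genes of dividing cells summed to 1640 to 2235 CPM in stimulated and 738 to 1037 in young fresh libraries. Those of monocytes and macrophages summed to 213 to 312 CPM against 32.0 to 65.2, and those of mast cells and basophils to 36.1 to 84.5 against 0 to 14.7. The T and NK cell sums given above were also higher in stimulated libraries. The B cell sums were higher in stimulated WT and touched the young fresh range in stimulated KO. The neutrophil sums were lower, but the 7 genes did not move together: 2 passed as higher and 4 as lower, with differences from -3.99 to 4.42. The part of any of these in these differences was not tested.

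**Figure D2:**
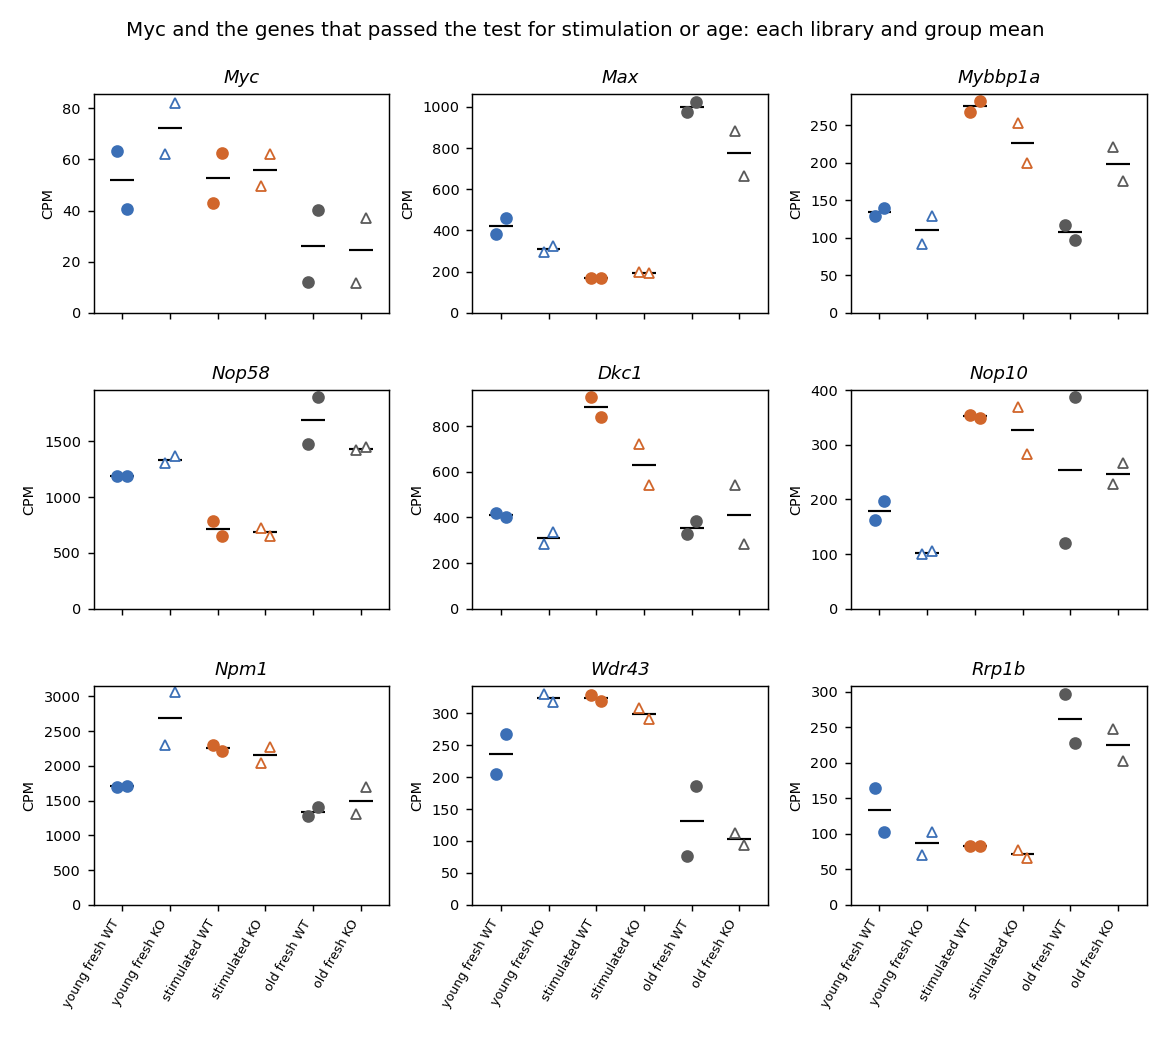
CPM of Myc and of the 8 genes that passed for stimulation or age in each library (points) with the group mean (bars), on linear axes that start at 0. Max is lowest in stimulated and highest in old fresh cells, Nop58 is lowest in stimulated cells, and Dkc1 is highest there.

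The small subunit factors gave 0 calls in 5 genes, with 2 at an unadjusted p under 0.05; DESeq2 and voom each called 1 higher and 1 lower. Nop14, a component of the complex that processes the 5′ part of pre-rRNA, was at 52.2 to 68.9 CPM in stimulated and 94.1 to 218 in young fresh libraries, a difference of -1.20 ± 0.31 (edgeR adjusted p = 0.0541). Rrp12, which takes part in the export of both subunits, was at 20.5 to 30.9 CPM in stimulated and 0.51 to 6.28 in young fresh libraries, a difference of 3.60 ± 1.14 (adjusted p = 0.13). Both separate the groups fully. The error of Rrp12 is above the median SE of the 34 genes in this comparison (0.41) and that of Nop14 is below it. Nop14 passed with RLE scaling (0.0409), DESeq2 (0.00742), voom (0.0141) and in a fit of the 8 libraries alone (0.0195). Rrp9, Wdr43 and Utp20, further components of the same complex, had differences between 0.17 and 1.14. A list of 36 other small subunit factors had 0 calls with edgeR and voom, 1 lower with DESeq2 and 3 genes at an unadjusted p under 0.05; the smallest p was that of Riok2, a late-acting kinase (-0.93 ± 0.30, adjusted p = 0.137).

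The large subunit factors gave 0 calls in 13 genes, with 4 at an unadjusted p under 0.05; DESeq2 and voom each called 1 higher and 1 lower. Ebna1bp2 was at 80.1 to 119.5 CPM in stimulated and 179 to 237 in young fresh libraries, a difference of -0.99 ± 0.31 (edgeR adjusted p = 0.116). Pes1, which forms the PeBoW complex with Bop1 and Wdr12 for large subunit rRNA processing, was at 41.9 to 60.9 CPM in stimulated and 0 to 16.2 in young fresh libraries, a difference of 2.76 ± 1.05 (adjusted p = 0.195). Without young fresh KO replicate 4 Pes1 passed (adjusted p = 0.0165), and the library of that group then left had 0 counts of it. The partners Bop1 and Wdr12 had differences of 1.21 ± 1.32 and -0.10 ± 0.40. Over the 13 genes the differences ran from -0.99 to 2.76, 7 positive and 6 negative; Nop16 had 0.26 ± 0.54 and the helicase Ddx18 -0.11 ± 0.39. In a list of 32 other large subunit factors 0 rose and 1 fell with edgeR, while DESeq2 and voom each called 1 higher and 2 lower. The gene that fell was Nsa2 (-1.01 ± 0.16, adjusted p = 0.00297, held in 14 of 14 alternatives), which joins early large subunit particles.

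Across all 34 genes, 9 had every stimulated library above every young fresh one and 6 had every one below. Over all genes tested those shares were 14.6% above and 5.16% below. The 9 were Mybbp1a, Nolc1, Dkc1, Nhp2, Nop10, Rrp12, Pes1, Rrs1 and Noc2l, and the 6 were Max, Ncl, Nop58, Nop14, Gnl3 and Ebna1bp2. Unadjusted p-values were under 0.05 for 13 of the 34 (38.2%) and for 17.7% of all genes. The median difference was 0.20 over the 34 genes and 0.27 over all genes tested.

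**Figure D3:**
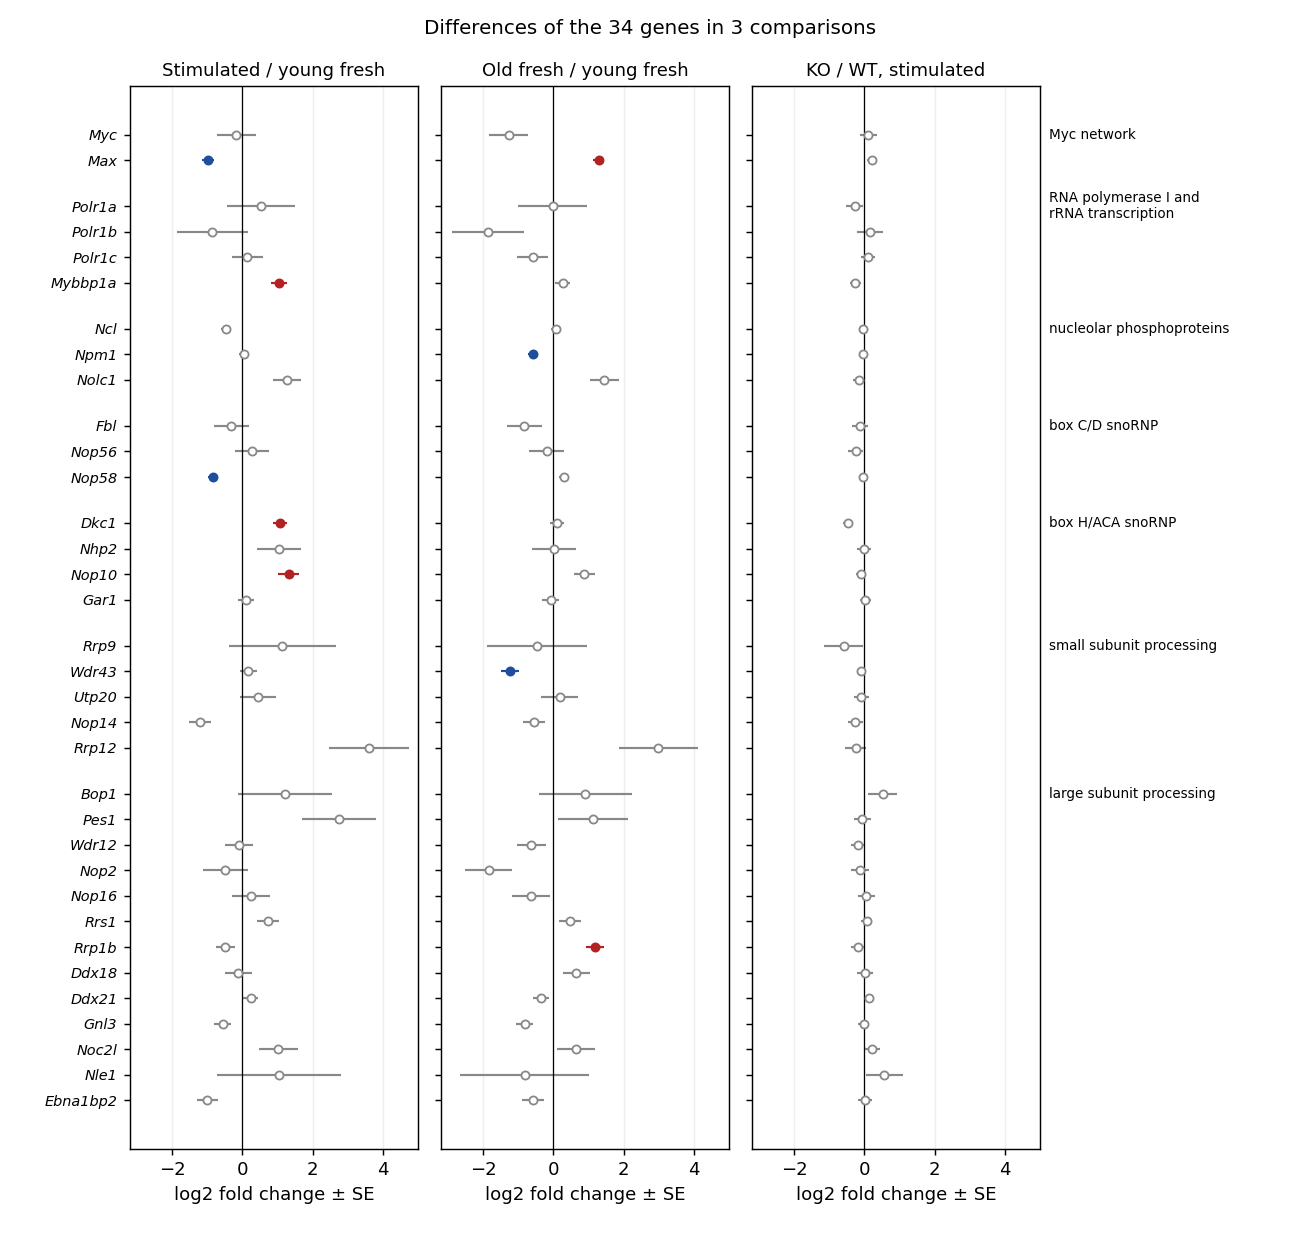
Log2 fold change ± SE from edgeR for each gene in 3 comparisons (filled red: passed and higher; filled blue: passed and lower; open: did not pass). Stimulation and age each show calls in both directions, while KO against WT in stimulated cells shows short error bars and 0 calls.

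Genes linked to Myc outside the ribosome were read from 4 further lists. Of 19 tested Myc targets outside the ribosome 1 rose and 2 fell with stimulation, and DESeq2 called 4 higher and 2 lower. Ptma, prothymosin alpha, a chromatin protein of growing cells, rose by 1.16 ± 0.12 (adjusted p = 8.51e-05), from 603 to 740 CPM in young fresh to 1332 to 1653 in stimulated libraries. Ccnd2, a G1 cyclin, fell by 0.78 on the log2 scale (adjusted p = 0.0136), but not past the threshold without young fresh WT replicate 1 or young fresh KO replicate 4 (0.0725 and 0.0525). Eif4a1, a translation initiation helicase, fell by 0.90 on the log2 scale (adjusted p = 0.0389). That call was lost in a fit of the 8 libraries alone (0.0596) and without young fresh WT replicate 1, young fresh KO replicate 4, either stimulated WT library or stimulated KO replicate 4 (0.0986 to 0.275).

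Of 11 snoRNA host genes 1 rose and 0 fell with stimulation, 5 had an unadjusted p under 0.05 (45.5%, against 17.7% of all genes), and DESeq2 called 4 higher and voom 3. The gene that rose with edgeR was Snhg8 (1.05 ± 0.24, adjusted p = 0.0268). It did not pass without either young fresh WT library, young fresh KO replicate 3, stimulated WT replicate 2 or stimulated KO replicate 4 (0.0572 to 0.106). The 4 tested genes that Myc is known to repress gave 0 calls with edgeR, 2 at an unadjusted p under 0.05 and 1 higher with both DESeq2 and voom. Of these, Cdkn1a, the CDK inhibitor p21, was at 5.52 to 22.1 CPM in stimulated and 0 to 1.14 in young fresh libraries (adjusted p = 0.173).

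Of 8 genes of p53 and nucleolar stress 0 rose and 3 fell with stimulation. Rpl11 and Rpl5 encode ribosomal proteins that, with 5S rRNA, bind Mdm2 when assembly fails. Rpl11 fell by 1.28 on the log2 scale (adjusted p = 1.69e-05), from 3185 to 3340 CPM in young fresh to 1255 to 1503 in stimulated libraries. Rpl5 fell by 0.50 (adjusted p = 0.0183), and not past the threshold without young fresh WT replicate 1, young fresh KO replicate 4, stimulated WT replicate 2 or stimulated KO replicate 3 (0.0525 to 0.136). Ccng1, a p53 target, fell by 1.26 (adjusted p = 0.0274). Its call was lost without young fresh WT replicate 1, young fresh KO replicate 3 or any 1 of the stimulated libraries (0.0517 to 0.178). Ribosomal protein genes have many near-identical pseudogenes, so their counts are uncertain.

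Old and young fresh cells differed in 4 of the 34 genes when both genotypes were averaged. Age goes with library depth here and cannot be told apart from it. Max and Rrp1b were higher in old cells, and Npm1 and Wdr43 were lower. Over all genes tested 2.83% were higher and 2.16% lower, against 2 and 2 of these 34. DESeq2 called 4 higher and 4 lower, where it called 6.52% and 6.26% of all genes. Voom called 1 and 2, where it called 1.46% and 0.736%. These comparisons use the same young fresh libraries as those of stimulation. For age, the counts of genes at an unadjusted p under 0.05 given below were not set against the share of all genes at such a p.

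Max was higher by 1.29 ± 0.16 (adjusted p = 0.000261) in old cells, held in 14 of 14 alternatives, with all 4 old libraries at or above 666.8 CPM and all young fresh ones at or below 459. Within WT it was the only call (1.25, adjusted p = 0.0106; 1.78% of all genes were called), and it was lost without young fresh WT replicate 1 (0.0891) and in a fit of the 4 libraries alone (0.154). Without old fresh WT replicate 2, Wdr43 (-1.64, adjusted p = 0.0306) and Polr1a (0.0224) passed within WT as well, and the old WT library then left had 0 counts of Polr1a. DESeq2 called 2 higher within WT (7.24% of all genes either way) and voom 1 (0.598%). Within KO 3 genes passed where 1.82% of all genes did. They were Max (1.33, adjusted p = 0.00703), Npm1 (-0.84, 0.0329) and Wdr43 (-1.65, 0.0319). DESeq2 called 2 higher and 2 lower within KO (8.78% of all genes) and voom 0 (0.364%). Without old fresh KO replicate 3 none of the 3 passed (0.0751, 0.237 and 0.168). Npm1 was also lost without young fresh KO replicate 4 (0.133), and Wdr43 without any 1 of the 4 libraries (0.0601 to 0.168). With voom or in a fit of the 4 libraries alone none of the 3 passed (0.0821 to 0.305). Myc was at -1.27 ± 0.56 (adjusted p = 0.21), with an interval of -2.47 to -0.08.

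Rrp1b (chr17:32036100-32062865, plus strand), which works in large subunit processing, was at 164 and 103 (WT) and 70.4 and 103 CPM (KO) in young fresh cells, 83.2 and 82.5 (WT) and 77.8 and 65.2 CPM (KO) in stimulated cells, and 297 and 228 (WT) and 247 and 203 CPM (KO) in old fresh cells. Old libraries all exceed the others. The difference with age was 1.18 ± 0.26 (adjusted p = 0.0163). It did not pass without young fresh WT replicate 2, old fresh WT replicate 1 or old fresh KO replicate 3 (0.0546 to 0.0652), with voom (0.0806), or in a fit of the 8 libraries alone (0.0593).

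Npm1 (chr11:33152287-33163206, minus strand) was at 1698 and 1711 (WT) and 2300 and 3066 CPM (KO) in young fresh cells, 2297 and 2214 (WT) and 2046 and 2274 CPM (KO) in stimulated cells, and 1280 and 1403 (WT) and 1300 and 1696 CPM (KO) in old fresh cells. Old libraries are the lowest, though old fresh KO replicate 4 nearly meets young fresh WT replicate 1. The difference was -0.59 ± 0.13 (adjusted p = 0.0164), and the call was lost without old fresh KO replicate 3 (0.0655) and in a fit of the 8 libraries alone (0.0525).

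Wdr43 (chr17:71615895-71659031, plus strand), a component of the small subunit processing complex, was at 204 and 267 (WT) and 331 and 318 CPM (KO) in young fresh cells, 329 and 319 (WT) and 308 and 291 CPM (KO) in stimulated cells, and 76.5 and 187 (WT) and 112 and 94.3 CPM (KO) in old fresh cells. The difference with age was -1.25 ± 0.25 (adjusted p = 0.00967), held in 14 of 14 alternatives. All old libraries are below all young ones, with old fresh WT replicate 2 the nearest to them.

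Complete separation by age was seen above for 5 of the 34 genes (Max, Nolc1, Nop58, Rrp12 and Rrp1b; 4.51% of all genes) and below for 5 (Myc, Polr1b, Npm1, Wdr43 and Gnl3; 3.33% of all genes). Nolc1 passed without young fresh WT replicate 1 (1.97, adjusted p = 0.0264) or old fresh KO replicate 3 (1.72, 0.0379), and its value over all libraries was 1.45 ± 0.41 (0.0581). The RNA polymerase I, box C/D and box H/ACA genes gave 0 calls with edgeR, DESeq2 and voom, with 0, 1 and 1 at an unadjusted p under 0.05, and Nop10 passed without old fresh WT replicate 1 (1.18, 0.00565). Also called on leaving out 1 library were Gnl3, nucleostemin, without old fresh KO replicate 4 (-1.15, 0.0165), Pes1 without young fresh KO replicate 4 (0.0371) and Polr1a without old fresh WT replicate 2 (0.032). Neutrophil marker genes were lower in old than in young fresh libraries, by the sums given above, and megakaryocyte markers summed to 1438 to 2365 CPM in old fresh KO, 358 to 583 in old fresh WT and 269 to 591 in young fresh libraries. The part of either in these differences was not tested.

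Other lists also held calls with age. Among polymerase I genes Taf1d fell by 1.13 on the log2 scale (adjusted p = 0.0089; 0.0519 without old fresh KO replicate 3). In the small subunit list DESeq2 called 1 higher and 3 lower and voom 0, and Nol11, a factor of pre-rRNA transcription and processing, fell by 1.72 on the log2 scale (0.0423). It was lost with voom (0.151), in a fit of the 8 libraries alone (0.179), and without either young fresh WT library, young fresh KO replicate 4, old fresh WT replicate 2 or old fresh KO replicate 3 (0.0712 to 0.134). In the large subunit list the helicase Ddx10 fell by 2.10 on the log2 scale (0.00225, and 0.0648 with voom). It went from 65.1 to 159 CPM in young fresh to 19.5 to 33.6 in old libraries. Its place in that list is an assignment, and no result here shows which subunit it serves. The 11 other Myc network genes gave 0 calls with all 3 tools and 1 at an unadjusted p under 0.05, and the 4 repressed genes gave 0 and 1.

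Of the 11 snoRNA host genes 3 were higher in old cells and 0 lower; DESeq2 called 4 higher and voom 1. Gas5, whose introns hold many box C/D snoRNAs, was higher by 0.51 ± 0.10 (adjusted p = 0.0089). Snhg12 was higher by 1.96 ± 0.44 (0.0185), not passing with voom (0.241) or without either young fresh WT library, old fresh WT replicate 1 or old fresh KO replicate 4 (0.0531 to 0.095). Snhg3 was higher by 1.18 ± 0.32 (0.0452). It did not pass with voom (0.378), in a fit of the 8 libraries alone (0.089), or without either young fresh WT library, young fresh KO replicate 4, either old fresh WT library or old fresh KO replicate 4 (0.0804 to 0.196).

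Of the 19 Myc targets outside the ribosome 3 were higher in old cells and 1 lower; voom called 2 higher and 0 lower. Ptma was higher by 1.84 ± 0.12 (adjusted p = 1.08e-06), at 1910 to 2811 CPM in old libraries. Hspe1, a mitochondrial chaperonin, was higher by 0.84 ± 0.15 (0.00371). Nme2, a nucleoside diphosphate kinase, was higher by 0.68 (0.0467) and was lost with RLE scaling (0.0571), with voom (0.172), in a fit of the 8 libraries alone (0.167), and without any 1 library other than young fresh KO replicate 4 and old fresh WT replicate 1 (0.0802 to 0.137). Cdk4, a G1 kinase, was lower by a log2 fold change of -1.42 (0.0325). Cdk4 was lost with voom (0.146), in a fit of the 8 libraries alone (0.197), and without either young fresh WT library, old fresh WT replicate 1 or old fresh KO replicate 3 (0.0589 to 0.11). In the p53 list Rpl5 was higher by 0.40 (0.0411), lost with RLE scaling (0.0652), with voom (0.0922), in a fit of the 8 libraries alone (0.102) and without any 1 library other than young fresh KO replicate 4 and old fresh WT replicate 1 (0.0648 to 0.113).

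Between KO and WT cells 0 of the 34 genes passed in each of the 3 conditions with edgeR. In stimulated cells, fitted on their own 4 libraries, 1.23% of all genes passed. Of the 34 genes 1 had an unadjusted p under 0.05, DESeq2 called 0 and voom called 1. The share of all genes at such a p was 10.9%, DESeq2 called 1.23% of all genes and voom, fitted on all 12 libraries, 1.97%. Here the 95% interval lay within a log2 fold change of 1 in either direction for 31 of the 34 genes. Myc differed by 0.10 ± 0.24 (-0.41 to 0.62) and Max by 0.23 ± 0.14 (-0.07 to 0.53).

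The 1 gene was Dkc1, at 928 and 841 CPM in the WT pair against 719 and 540.5 in the KO pair of stimulated libraries, a difference of -0.47 ± 0.14 (edgeR adjusted p = 0.143). It passed without stimulated WT replicate 2 (-0.53, 0.0384), with no filter on low counts (0.01) and with voom (0.0103). Markers of dividing cells were also lower in stimulated KO, at a sum of 1640 to 1730 CPM against 2069 to 2235 in WT, with 5 of 6 genes negative and 1 passing as lower, and their part in the Dkc1 difference was not tested. The next in order of p were Mybbp1a (-0.26 ± 0.15, adjusted p = 0.572) and Max. Of the 34 genes 4 had both KO libraries above both WT ones (Max, Bop1, Ddx21 and Nle1; 19.5% of all genes) and 9 had both below (Polr1a, Mybbp1a, Nolc1, Nop56, Dkc1, Rrp9, Wdr43, Nop14 and Rrp1b; 22.6% of all genes).

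Mycn was the 1 gene of the 8 wider lists to pass in stimulated KO against WT, at 102 and 66.6 CPM in KO and 41.2 and 29.4 in WT. The difference was 1.28 ± 0.25 (edgeR adjusted p = 0.0209). It did not pass without stimulated KO replicate 3 (0.94, 0.259) or in the fit of all 12 libraries (1.26, adjusted p = 1). The megakaryocyte markers were also higher in stimulated KO, at a sum of 450 to 496 CPM against 145 to 256 in WT, and their part in the Mycn difference was not tested.

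In young fresh cells 0.026% of all genes passed for KO against WT, and 0 of the 34, with 3 at an unadjusted p under 0.05 and 1 called higher by DESeq2 but 0 by voom. The share of all genes was 10.7% at such a p, 3.21% with DESeq2 and 0% with voom. The gene called by DESeq2, Npm1, differed by 0.65 ± 0.19 (edgeR adjusted p = 0.293; DESeq2 0.0155). The next were Gar1 (1.04 ± 0.34, 0.378) and Nop14 (1.10 ± 0.44, 0.433). All 3, which were picked by p, were higher in both KO libraries than in both WT ones. The share of all genes separated in this way was not counted in young fresh cells. In stimulated cells it was 19.5%.

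In old fresh cells 0.0433% of all genes passed and 0 of the 34, with 2 at an unadjusted p under 0.05 and 0 called by DESeq2 or voom. The share of all genes at such a p was 11.1%, and DESeq2 called 3.34% and voom 0.0173%. Mybbp1a (0.89 ± 0.32, 0.396) and Nop56 (1.56 ± 0.71, 0.446) had the smallest p-values. The interval lay within a log2 fold change of 1 in either direction for 9 of the 34 genes here and 6 in young fresh cells.

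The KO effect was also compared between conditions. Between stimulated and young fresh cells it differed for 0% of all genes and 0 of the 34, with 3 at an unadjusted p under 0.05 (Npm1, Gar1 and Nop14; adjusted p = 0.885 each) and 0 by DESeq2 (0.352% of all genes) or voom (0%). The share of all genes at such a p was 5%. Between old and young fresh cells it differed for 0.0346% of all genes and 0 of the 34, with 3 at an unadjusted p under 0.05 (Mybbp1a, Gar1 and Rrp9; 0.332, 0.333 and 0.409) and 0 by DESeq2 (2.97% of all genes) or voom (0%). The share at such a p was 12.2%. Without old fresh WT replicate 2, Polr1a passed in the comparison of old and young (adjusted p = 0.0485), with 0 counts in the only old WT library left.

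A score over the 34 genes, the mean of their log2 CPM after centring each gene on its mean over the 12 libraries, was -0.18 ± 0.19 (SD, n = 2) for young fresh WT and -0.08 ± 0.17 for the matching KO group. It was 0.34 ± 0.05 and 0.27 ± 0.13 in stimulated WT and KO. Old fresh WT and KO had -0.17 ± 0.40 and -0.18 ± 0.21. The stimulated libraries had the 4 highest values, 0.18 to 0.37, over fresh libraries at -0.45 to 0.12. The same mean over all genes tested was also highest in them, at 0.38 to 0.41 against -0.42 to -0.07, so the score moved with all genes. The difference between stimulated and young fresh cells was 0.43, against an SD of 0.14 between replicates. The summed CPM of the 34 genes was 8468 to 11030 in young fresh and 8233 to 9390 in stimulated libraries. Without Ncl, Npm1 and Nop58 the sums were 3197 to 3306 and 3337 to 4063. Age gave -0.04 and KO gave 0.10, -0.01 and -0.07 in young, old and stimulated cells.

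**Figure D4:**
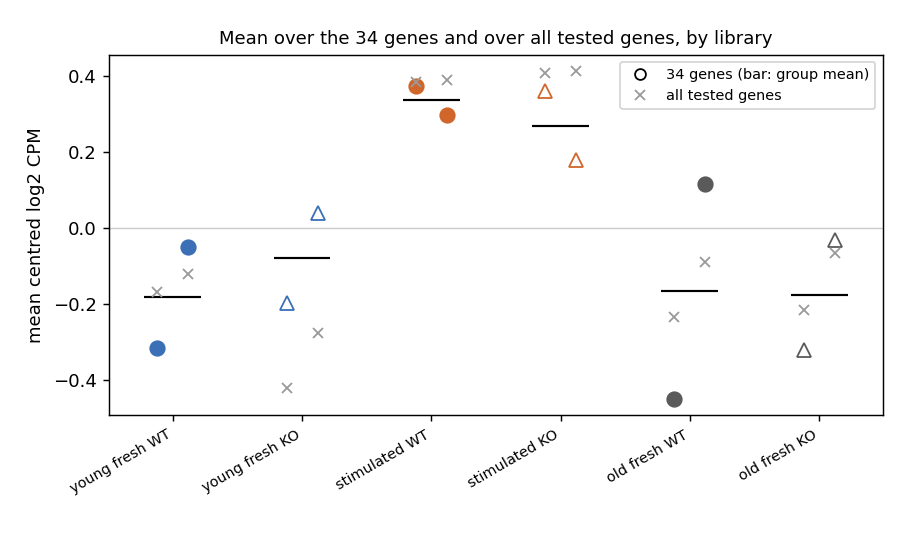
Mean centred log2 CPM of the 34 genes in each library (points, with the group mean as a bar) and of all genes tested (crosses), by group. The stimulated libraries are highest on both measures, and the old WT pair spans -0.45 to 0.12.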

How the data were processed

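RNA of sorted mouse HSCs was purified with RNeasy Plus Micro columns and made into QuantSeq 3′ FWD libraries, per the labels' protocols. Each file deposited by the authors held whole-number read counts for every gene symbol. The submitters' processing notes name mm10, HISAT2 2.2.1, HTSeq 0.9.1 and DESeq2 1.34.0; annotation, strandedness and trimming are not given in the sources used here. A 3′ tag library counts transcript ends, so a level carries no length term, and genes with shared or near-identical 3′ ends are uncertain; levels were not compared between genes.

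Counts were tested in R 4.3.3 with edgeR 4.0.16 (quasi-likelihood, TMM scaling, filterByExpr with min.count 10 and min.total.count 15, Benjamini-Hochberg adjustment over all genes tested, calls under 0.05). One fit of 12 libraries in 6 groups held 11548 genes, with 6 residual and 8.68 prior degrees of freedom. KO against WT in stimulated cells was fitted on its own 4 libraries (10494 genes, 2 residual and 13 prior degrees of freedom). That choice was made because earlier results of these data showed a far smaller spread between stimulated replicates than between fresh ones. The other comparisons kept the spread shared over 12 libraries. There were 11 comparisons. The SEs of the log2 fold changes are not output of the edgeR model. Each was worked back as the absolute log2 fold change divided by the square root of the F statistic of its quasi-likelihood test. The intervals, and the counts of intervals within a limit, were built from these SEs with the residual and prior degrees of freedom, so they are approximate. CPM used TMM sizes; the score used log2 CPM with a prior count of 2. SDs are over 2 libraries. Totals per library were 1600155 to 5164720 counts, so a gene at a few CPM rests on few reads. The scripts were tested on simulated data. Alternatives were RLE scaling, no filter, DESeq2 1.42.0, limma 3.58.1's voom with a weight per group, only the libraries compared, a replicate block, and leaving out each library.

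Named were all 34 genes. Those that passed, with Myc and Max, were given by every library. The 2 with the smallest p of each role in the comparison of stimulation were given in full. For KO against WT, and for the KO effect compared between conditions, up to 3 genes with the smallest p were given. Of the other lists up to 4 genes with the smallest p were considered, and those that passed were named. The 34 genes and all lists were chosen with earlier results of these data known. A call on a list is its count of genes that passed over all genes tested.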

Additional observations from a re-analysis of the deposited data

How the results depend on the processing

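With 2 libraries a group, calls near the threshold moved with the method, and no named gene that passed turned its direction in any alternative. Averaged over genotypes, stimulation gave 3 higher and 2 lower genes; DESeq2 gave 5 and 5, voom gave 5 and 5, RLE scaling gave 4 lower, and only the libraries compared gave 4 lower. In WT alone (0 higher, 1 lower), higher genes were 1 with no filter, 2 with DESeq2 and 1 with voom, and lower genes were 2 with DESeq2, 2 with voom and 0 with only the libraries compared. In KO alone (0 higher, 1 lower), higher genes were 2 with no filter and 2 with DESeq2, and lower genes were 3 with no filter, 3 with DESeq2, 3 with voom and 0 with only the libraries compared. For age averaged over genotypes (2 higher, 2 lower), higher genes were 4 with no filter, 4 with DESeq2, 1 with voom and 1 with only the libraries compared, and lower genes were 4 with DESeq2 and 1 with only the libraries compared. For age in WT (1 higher), DESeq2 gave 2 and only the libraries compared gave 0. For age in KO (1 higher, 2 lower), higher genes were 2 with no filter, 2 with DESeq2, 0 with voom and 0 with only the libraries compared, and lower genes were 0 with voom and 0 with only the libraries compared. For KO against WT (0 either way), DESeq2 gave 1 higher in young fresh cells, and no filter and voom each gave 1 lower in stimulated cells. The share of all genes called also differed between edgeR, DESeq2 and voom, as given above. For the other settings, here and below, that share is not given. The cause of these moves was not tested.

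Leaving out 1 library at a time gave 1 to 3 higher and 2 to 3 lower genes for stimulation, 0 higher and 0 to 1 lower in WT and 0 higher and 0 lower in KO. For age it gave 1 to 3 higher and 1 to 3 lower, 0 to 1 higher and 0 to 2 lower in WT, and 0 to 1 higher and 0 to 1 lower in KO. For KO against WT it gave 0 to 1 lower in stimulated cells and otherwise 0, and for the KO effect in old minus young fresh cells 0 to 1 higher. A group left with 1 library is assumed to vary like the others.

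WT libraries are numbered 1 and 2 and KO libraries 3 and 4 in the titles. Deviations of same-numbered libraries correlated at -0.0132 to 0.0118 over genes. In fresh groups 45.1% to 48.9% of all genes tested were more than 2-fold apart between the 2 libraries. Such spread can hide a shared deviation, so whether the numbers pair the libraries cannot be told from these correlations. With the number as a replicate block, higher genes were 1 in WT and 1 in KO for stimulation, lower genes were 2 in KO, and for age higher genes were 4 averaged over genotypes and 2 in KO; it moved no other of these counts by over 1.5 times. The score kept its direction in 3 of 3 alternatives for stimulation, and ranged over 0.366 to 0.5 with 1 library left out. For age it ranged over -0.182 to 0.1, and for KO over -0.0296 to 0.237, -0.291 to 0.273 and -0.158 to 0.025 in young, old and stimulated cells. Old libraries hold more counts than young ones. Genes such as Rrp9, Rrp12, Bop1, Pes1 and Nle1 are limited by few counts in some fresh libraries, and not only in those of low depth. Rrp9 and Nle1 had 0 counts in old fresh KO replicate 3, which held 4709097 counts. Fresh libraries had 9116 to 10231 genes with a count, and stimulated ones 13163 to 13450.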
